A study of Mus musculus with 6 samples.

Results

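The gene set described here is the T cell receptor complex and its proximal signalling machinery, 46 genes of the 38216 gene symbols in the table. They were chosen by function, with no threshold on their values: the CD3 chains, the coreceptor, the kinases that phosphorylate the receptor, the adaptors, and the enzymes that relay or restrain the signal. Earlier results of these data were known when this choice was made. RNA came from CD4+ T cells of the spleens of C57BL/6 mice at postnatal day 28 that carried an IL21-VFP reporter, in which cells transcribing the cytokine gene Il21 carry the fluorescent protein VFP. The mice were described as naïve, with no treatment named, and all 3 sorted pools shared the reporter, the strain, the age and the tissue. The pool called N was VFP-ICOS-, the pool called ACT was VFP-ICOS+, and the pool called ACT_IL21 was VFP+ICOS+, where ICOS is a surface receptor of activated T cells. Each pool had 2 libraries. The labels give neither the number of animals nor whether a pool's 2 libraries had separate ones as source. The p-values thus rest on the spread within library pairs, and that spread may be technical only.

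The T cell receptor has no enzyme of its own. When it binds peptide on an MHC molecule, the kinase LCK, brought in by the coreceptor CD4, phosphorylates motifs in the CD3 and zeta chains. The kinase ZAP-70 docks there and phosphorylates the adaptors LAT and SLP-76, which gather Tec family kinases and phospholipase C gamma 1. The lipase makes a calcium signal that runs through calcineurin and a diacylglycerol signal that runs to RAS, protein kinase C theta and NF-kB. Phosphatases, diacylglycerol kinases and inhibitory adaptors set how strongly the relay runs.

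Values are TPM, a level per transcript length scaled to a fixed total per library, so levels of different genes can be compared. Between 12095 and 12396 genes reached 1 TPM in a library, and the number of reads behind the values is unknown. Spearman correlations across genes were 0.941 to 0.971 within a pool and 0.904 to 0.931 between pools. The sort was visible in RNA. Icos was at 35.67 and 31.92 TPM in the N libraries, 254.10 and 241.35 in ACT, and 184.97 and 226.73 in ACT_IL21, and Il21 was at 44.48 and 51.87 TPM in ACT_IL21 and at most 1.26 TPM elsewhere. T cell receptor transcripts were abundant in every library (Trac, 1468.68 to 2491.30 TPM), while Cd8a did not exceed 0.36 TPM or Ms4a1 0.24 TPM.

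All 46 genes were in the table and passed the filter of at least 1 TPM in at least 2 libraries. They were expressed at high levels, with a median of mean TPM of 87.8 against 14.92 for the 13311 genes tested, and 22 of the 46 lay in the top 10% by level. The lowest mean was that of Vav3 (12.29 TPM) and the highest that of Cd3e (1790.8 TPM), and no member fell below 5.59 TPM in any library. Because the lowest value was above 1 TPM, every member would have passed the filter on any single pool. Tests were made with limma on log2(TPM + 1), with p-values adjusted by the Benjamini-Hochberg method over all genes tested in a comparison and a threshold of 0.05. Fold changes are on that scale, written as log2 difference ± SE.

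Of the 46 genes, 35 passed the threshold in no comparison and 11 in at least 1. Between ACT and N, 3 of 46 members passed the threshold (Dgka and Cd247 lower, Ptpn22 higher), or 6.52%, beside 5.58% of all genes tested (4.15% higher and 1.43% lower). Between ACT_IL21 and N, 9 of 46 passed (Cd4, Fyn, Lcp2, Malt1, Ptpn22 and Ubash3b higher, Txk, Tec and Ppp3ca lower), or 19.6%, beside 5.09% of all genes (3.82% higher and 1.26% lower). Between ACT_IL21 and ACT, 6 of 46 passed (Cd4, Cd247, Dgka and Malt1 higher, Txk and Ppp3ca lower), or 13.0%, beside 1.95% of all genes (0.796% higher and 1.15% lower). Among the 7296 genes whose mean was at least that of Vav3, the shares were 7.22%, 6.57% and 2.51%. Because the members were chosen with earlier results of these data known, the shares are a description only. In all, 10 members passed a moderated F test over the 3 pools, beside 7.03% of all genes. The comparisons share libraries: N enters both comparisons with it, and so do ACT and ACT_IL21. In the ACT_IL21 and N comparison the 6 higher and 3 lower calls became 3 and 4 when TPM was rescaled by median-of-ratios factors, and 4 and 4 when it was rescaled without ribosomal and receptor genes. Of the 18 calls, 16 were lost without ACT_IL21 replicate 1 and 16 without ACT_IL21 replicate 2, 13 without either N library, 3 and 6 without ACT replicate 1 and 2, and 16 without the intensity trend of the spread. Only 2 (Dgka between ACT and N, Txk between ACT_IL21 and N) held under all 15 alternatives tried.

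**Figure D1:**
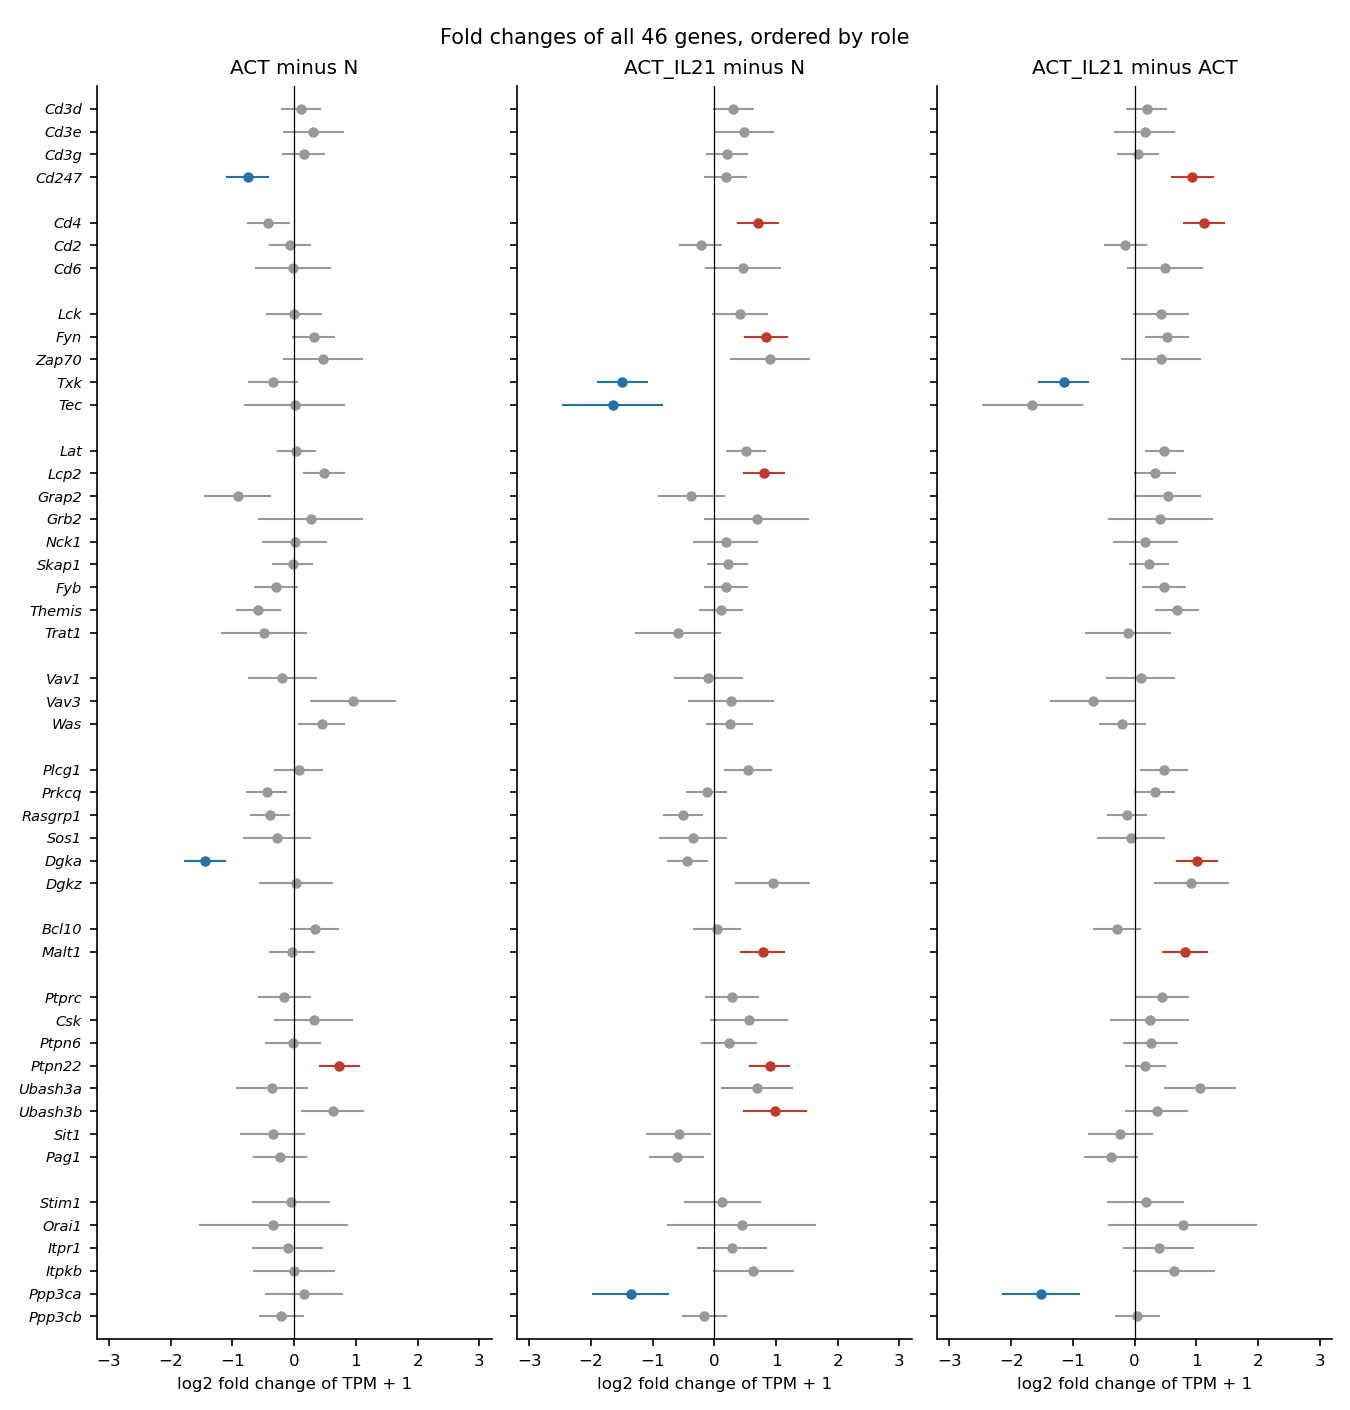
Log2 differences in TPM + 1 for the 46 genes in the 3 comparisons (x axis, log2), with genes grouped by role on the y axis. Dots are the differences and bars their 95% limma intervals; red dots passed the threshold as higher, blue dots as lower and grey dots did not pass, and the ACT_IL21 and N panel holds 6 red and 3 blue dots.

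The median of the whole set differed by comparison. The median log2 difference of the 46 genes was -0.02 between ACT and N, 0.24 between ACT_IL21 and N and 0.29 between ACT_IL21 and ACT, beside medians of 0.02, 0.10 and 0.08 over all genes tested. Summed over the 46 genes, the level was 10633.5 and 10322.5 TPM in the N libraries, 10213 and 9826 TPM in ACT, and 12201.1 and 12677.3 TPM in ACT_IL21. Both ACT_IL21 libraries were therefore above the 4 others in the sum. Abundant genes weigh most in it. The mean of Cd3e was 1482.88 TPM in N and 2042.55 TPM in ACT_IL21, and that of Ptprc 1573.09 and 1912.96 TPM. Neither gene passed the threshold in any comparison. In 22 members both ACT_IL21 libraries lay above the 4 others (13.4% of all genes did), and in 7 both lay below (7.31% of all genes). Both ACT libraries lay above the 4 others in 3 members (9.8% of all genes) and below in 7 (10.4%), and both N libraries lay above in 9 (10.4%) and below in 8 (15.7%). The count of 22 became 16 under median-of-ratios scaling, beside 10.5% of all genes, and 19 when rescaled without ribosomal and receptor genes, beside 11.4%. This is a description of the libraries without a test. In bulk RNA from a sorted pool, fewer cells of a type and less RNA per cell cannot be told apart.

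The antigen-binding chains of the receptor are held at the surface by the CD3 gamma, delta and epsilon chains and by zeta, encoded by Cd247. Cd3e, the epsilon chain that pairs with both others, was at 1690.83 and 1274.93 TPM in N, 2132.43 and 1561.35 TPM in ACT, and 1990.28 and 2094.81 TPM in ACT_IL21. The 2 libraries of N and of ACT lay wide apart and the ranges of ACT overlapped those of both other pools. Cd3g, the gamma chain, was at 603.51 and 713.77 TPM in N, 721.28 and 737.20 TPM in ACT, and 780.45 and 730.43 TPM in ACT_IL21. Cd3d, the delta chain, was at 270.87 and 244.56 TPM in N, 280.49 and 276.50 TPM in ACT, and 330.33 and 307.88 TPM in ACT_IL21, which was the highest pair. None of these 3 genes passed the threshold in any comparison, with adjusted p of 0.264 or more. Their 95% intervals between ACT and N ran from -0.20 to 0.42 for Cd3d, -0.16 to 0.78 for Cd3e and -0.17 to 0.48 for Cd3g on the log2 scale.

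Cd247, whose zeta chain carries most of the receptor's signalling motifs, parted from the other chains in the ACT pool. It was at 251.34 and 228.23 TPM in N, 150.02 and 133.81 TPM in ACT, and 262.38 and 282.43 TPM in ACT_IL21. Both ACT libraries were below the 4 others, and the ACT_IL21 libraries were a little above those of N. Cd247 fell between ACT and N by 0.75 ± 0.14 (limma adjusted p = 0.0221), and was higher in ACT_IL21 than in ACT by 0.94 ± 0.14 (limma adjusted p = 0.0205). Between ACT_IL21 and N the difference was 0.18 ± 0.14 (limma adjusted p = 0.565). As a ratio within a library, Cd247 over Cd3e was 0.149 and 0.179 in N, 0.0704 and 0.0857 in ACT, and 0.132 and 0.135 in ACT_IL21, so the 2 ACT values stood apart from the 4 others. With 1 library left out, the first call was lost without N replicate 1 or 2, ACT replicate 2, or ACT_IL21 replicate 1 or 2 (adjusted p up to 0.177), and the second without ACT replicate 2 or either ACT_IL21 library (up to 0.180). Cd247 lies on chromosome 1 at 165788681 to 165877277 of GRCm38, plus strand, and its exons share 3007 bases with those of Pou2f1 on the opposite strand. Pou2f1, which encodes the transcription factor OCT-1, was at 49.23 and 51.29 TPM in N, 25.13 and 33.55 TPM in ACT, and 50.40 and 60.37 TPM in ACT_IL21. The strand setting of the counting is not given in the sources used here, so reads of the shared bases cannot be told apart.

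**Figure D2:**
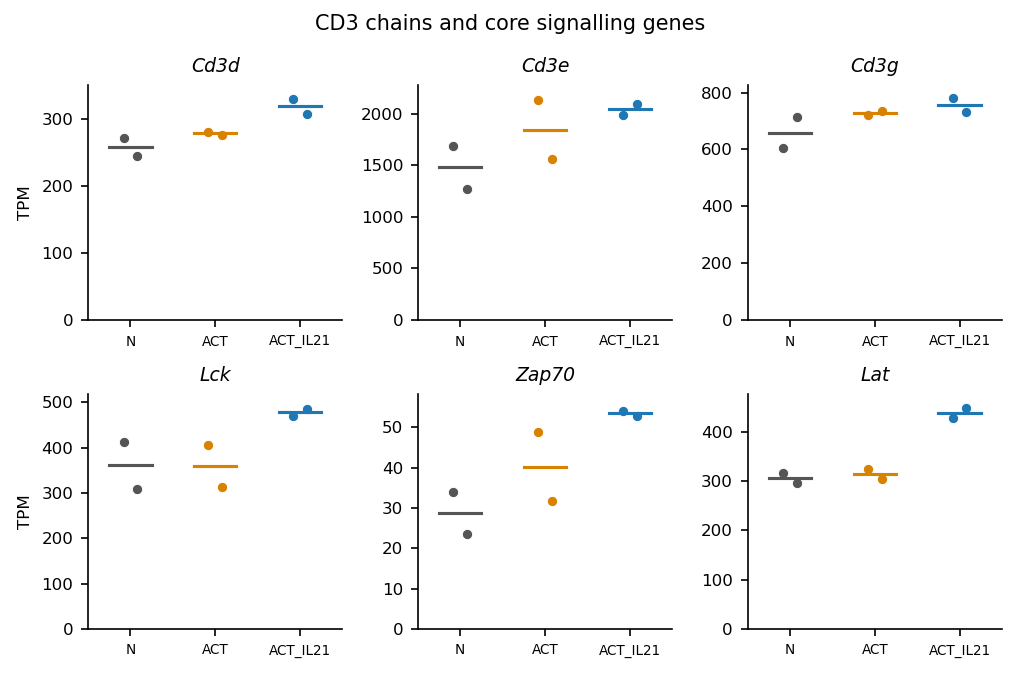
TPM (y axis, from 0) in the 2 libraries of each pool (x axis) for Cd3d, Cd3e, Cd3g, Lck, Zap70 and Lat. Dots are libraries and lines the mean of 2; in Lck and Zap70 the 2 N libraries and the 2 ACT libraries spread over overlapping ranges below ACT_IL21, and none of the 6 genes passed the threshold in any comparison.

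Cd4, the coreceptor that binds MHC class II and carries LCK, was also the surface marker on which all 3 pools were sorted. It was at 357.93 and 315.56 TPM in N, 267.60 and 236.07 TPM in ACT, and 533.54 and 566.54 TPM in ACT_IL21, so the 3 pools did not overlap and ACT was lowest. Cd4 rose between N and ACT_IL21 by 0.71 ± 0.14 (limma adjusted p = 0.0301) and was higher in ACT_IL21 than in ACT by 1.13 ± 0.14 (limma adjusted p = 0.0103), which is 2.18-fold by means. The difference between ACT and N was -0.42 ± 0.14 (limma adjusted p = 0.158). The first call was lost under both rescalings (adjusted p = 0.0520 and 0.0522) and without any 1 of the N or ACT_IL21 libraries (up to 0.233), and the second without either ACT_IL21 library (up to 0.116). The adhesion receptors Cd2 and Cd6, which bind partners on the antigen-presenting cell, did not pass in any comparison. Cd2 ranged from 470.79 to 596.63 TPM over the 6 libraries, and Cd6 from 73.21 to 137.98 TPM.

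Of the Src family kinases, Lck starts the signal at the coreceptor and Fyn is bound to the receptor chains themselves. Lck was at 412.72 and 309.72 TPM in N, 406.15 and 312.65 TPM in ACT, and 470.43 and 486.07 TPM in ACT_IL21. N and ACT overlapped almost completely, with an interval of the log2 difference from -0.44 to 0.43, and both ACT_IL21 libraries were above them without passing the threshold (0.42 ± 0.19 against N, limma adjusted p = 0.289). Fyn was at 124.96 and 145.05 TPM in N, 164.75 and 170.41 TPM in ACT, and 232.07 and 252.85 TPM in ACT_IL21. The pools did not overlap and stood in the order N, ACT, ACT_IL21. Fyn rose between N and ACT_IL21 by 0.84 ± 0.15 (limma adjusted p = 0.0172), whereas neither step passed by itself (ACT against N, 0.31, adjusted p = 0.310; ACT_IL21 against ACT, 0.53, adjusted p = 0.135). Lck remained the more abundant of the pair in every library, at 1.83 to 3.30 times the level of Fyn. Zap70, the Syk family kinase, was at 33.92 and 23.50 TPM in N, 48.79 and 31.61 TPM in ACT, and 54.04 and 52.85 TPM in ACT_IL21. It did not pass in any comparison, and its interval between ACT_IL21 and N was 0.27 to 1.53 (limma adjusted p = 0.121). The Fyn call was lost without any 1 of the N or ACT_IL21 libraries, with adjusted p up to 0.157.

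The Tec family kinases Txk and Tec were the receptor-proximal kinases with less RNA in ACT_IL21. Txk, also called RLK, was at 115.65 and 104.74 TPM in N, 82.12 and 91.24 TPM in ACT, and 35.70 and 41.45 TPM in ACT_IL21. The pools did not overlap, and the ACT_IL21 libraries were well below the others. Txk fell between N and ACT_IL21 by 1.49 ± 0.17 (limma adjusted p = 0.00317), 2.86-fold by means, and this call held under every alternative tried. It was also lower in ACT_IL21 than in ACT (-1.15 ± 0.17, limma adjusted p = 0.0188), a call lost without N replicate 1 or 2, ACT replicate 2 or either ACT_IL21 library (up to 0.133). Tec, which is less abundant, was at 21.72 and 20.02 TPM in N, 28.46 and 15.38 TPM in ACT, and 6.39 and 5.59 TPM in ACT_IL21. Both ACT_IL21 libraries were below the 4 others, and the ACT libraries lay on both sides of N. Tec fell between N and ACT_IL21 by 1.65 ± 0.35 (limma adjusted p = 0.0363), a call lost without any 1 of the N or ACT_IL21 libraries (up to 0.219), and its difference between ACT_IL21 and ACT was -1.65 ± 0.35 (limma adjusted p = 0.0631).

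Txk and Tec are neighbours. Txk spans 72695978 to 72752777 and Tec 72755716 to 72868483 of chromosome 5 (GRCm38), both on the minus strand with 2938 bases between them. Their upstream sequences are shown because these adjacent genes had their lowest values in the same 2 libraries. Each is the 250 bases before a RefSeq start (GRCm38.p6, minus strand, 5′ to 3′), chr5:72752778-72753027 for Txk and chr5:72868449-72868698 for Tec, with GGAA on either strand (GGAA or TTCC, the core of ETS family sites) in capitals.
Txk: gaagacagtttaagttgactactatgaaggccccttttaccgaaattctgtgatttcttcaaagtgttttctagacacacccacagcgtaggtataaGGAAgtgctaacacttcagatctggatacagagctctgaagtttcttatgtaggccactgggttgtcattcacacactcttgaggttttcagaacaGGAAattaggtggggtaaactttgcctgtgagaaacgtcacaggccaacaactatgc
Tec: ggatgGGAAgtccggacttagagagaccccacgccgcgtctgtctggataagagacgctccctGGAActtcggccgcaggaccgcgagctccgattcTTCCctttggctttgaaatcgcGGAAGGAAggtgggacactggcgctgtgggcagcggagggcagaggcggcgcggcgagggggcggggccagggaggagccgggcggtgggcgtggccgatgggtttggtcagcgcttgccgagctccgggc
The Txk window holds 2 matches and the Tec window 5. GGAA was in 93.4% of 32851 RefSeq promoter windows of the same length, with a median of 3 matches, so its presence does not set these genes apart.

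**Figure D3:**
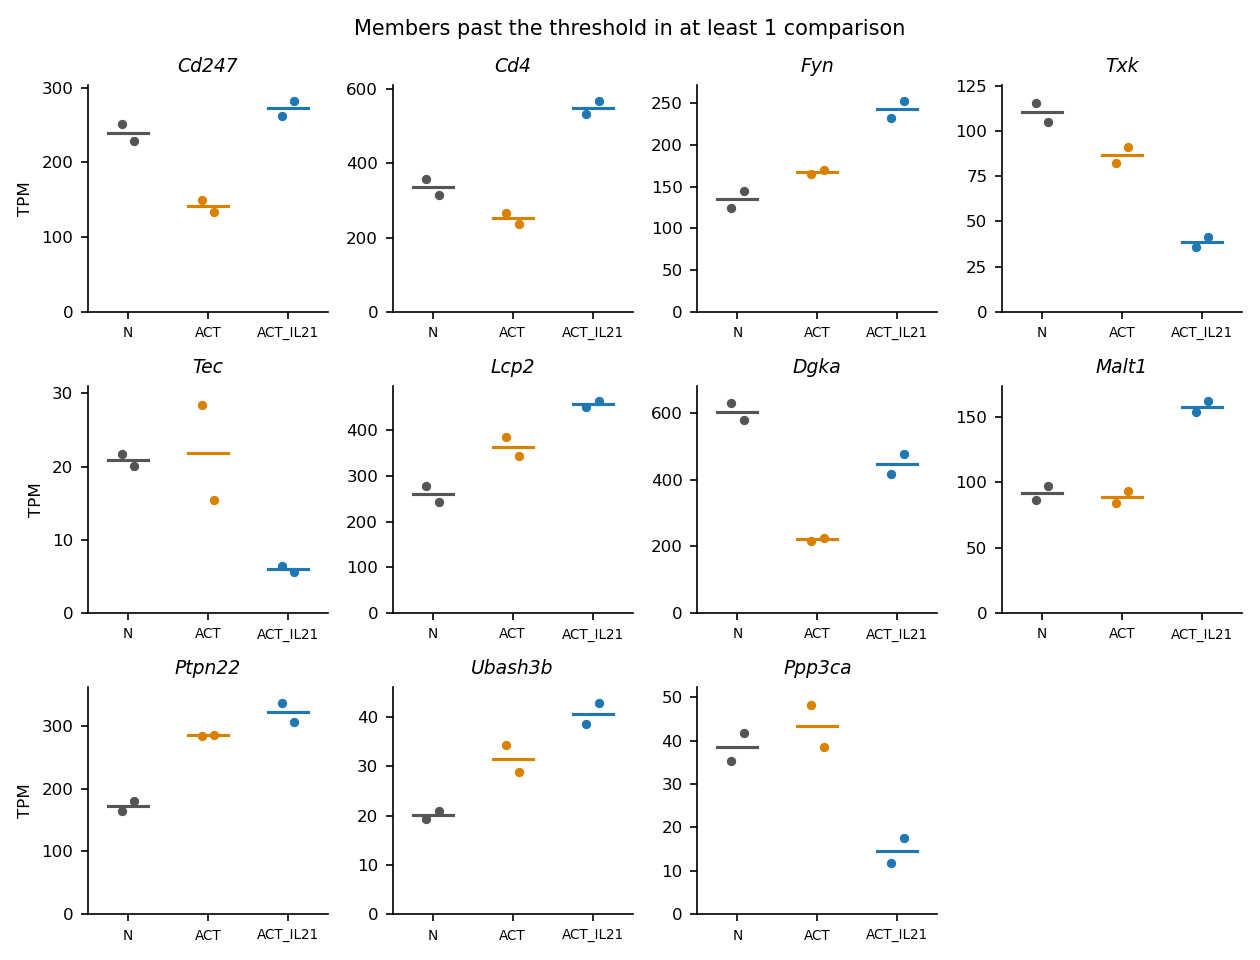
TPM (y axis, from 0) in the 2 libraries of each pool (x axis) for the 11 genes that passed the threshold in at least 1 comparison. Dots are libraries and lines the mean of 2; Cd247 and Dgka were lowest in ACT, Txk, Tec and Ppp3ca lowest in ACT_IL21, and Cd247, Cd4, Fyn, Lcp2, Malt1, Ptpn22 and Ubash3b highest in ACT_IL21.

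Among the 9 adaptors, which join enzymes without catalysing anything themselves, 1 passed the threshold. Lcp2, the SLP-76 scaffold, was at 278.16 and 243.08 TPM in N, 385.29 and 342.40 TPM in ACT, and 450.06 and 462.86 TPM in ACT_IL21. The pools did not overlap and stood in the order N, ACT, ACT_IL21. Lcp2 rose between N and ACT_IL21 by 0.81 ± 0.14 (limma adjusted p = 0.0176), a call lost without any 1 of the N or ACT_IL21 libraries (up to 0.155), and its difference between ACT and N was 0.48 ± 0.14 (adjusted p = 0.105). Lat, the membrane scaffold to which SLP-76 is joined, was at 316.36 and 296.41 TPM in N, 324.30 and 303.37 TPM in ACT, and 428.08 and 447.32 TPM in ACT_IL21. N and ACT overlapped, with an interval of -0.27 to 0.34, and both ACT_IL21 libraries were higher without passing (0.51 ± 0.13 against N, limma adjusted p = 0.0711). Grap2, the GADS adaptor that bridges the pair, went another way, at 38.08 and 32.98 TPM in N, 19.08 and 17.65 TPM in ACT, and 29.54 and 24.83 TPM in ACT_IL21. Its ACT libraries were the lowest, with a difference from N of -0.91 ± 0.23 that did not pass (limma adjusted p = 0.0618). Themis, an adaptor best known for its need in thymocyte selection, was likewise lowest in ACT, at 235.02 and 256.82 TPM in N, 149.98 and 179.86 TPM in ACT, and 272.10 and 258.48 TPM in ACT_IL21 (ACT against N, -0.58, adjusted p = 0.0695; ACT_IL21 against ACT, 0.69, adjusted p = 0.0696). Grb2, Nck1, Skap1, Fyb and Trat1 had adjusted p of 0.172 or more in the 3 comparisons.

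The actin regulators Vav1, Vav3 and Was, which act on the cytoskeleton at the contact site, did not pass in any comparison. Vav3, a guanine nucleotide exchange factor, was at 7.91 and 9.35 TPM in N, 17.94 and 17.30 TPM in ACT, and 11.02 and 10.22 TPM in ACT_IL21, so both ACT libraries were above the 4 others (0.96 ± 0.29 against N, limma adjusted p = 0.119). Its relative Vav1 ranged from 38.01 to 54.69 TPM with overlapping pools, and Vav1 over Vav3 was 6.91 and 4.24 in N, 2.42 and 2.20 in ACT, and 3.47 and 4.85 in ACT_IL21. Was, the WASP protein that starts actin branching, was likewise highest in ACT, at 76.84 and 81.45 TPM against 59.08 and 56.62 TPM in N and 68.56 and 68.97 TPM in ACT_IL21.

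Dgka gave the largest called change of the gene set between ACT and N. It encodes diacylglycerol kinase alpha, which removes the diacylglycerol that activates RasGRP1 and protein kinase C theta. Dgka was at 630.76 and 579.77 TPM in N, 216.50 and 226.51 TPM in ACT, and 418.02 and 477.60 TPM in ACT_IL21. The pools did not overlap, and ACT was lowest. Dgka fell between N and ACT by 1.45 ± 0.14 (limma adjusted p = 0.00102), 2.73-fold by means, and this call held under every alternative. It was higher in ACT_IL21 than in ACT by 1.01 ± 0.14 (limma adjusted p = 0.0134), a call lost without either ACT_IL21 library (up to 0.153), and its difference between ACT_IL21 and N was -0.44 ± 0.14 (adjusted p = 0.135). Dgkz, the zeta enzyme with the same reaction, did not follow it, at 66.79 and 48.11 TPM in N, 68.93 and 48.59 TPM in ACT, and 95.08 and 127.95 TPM in ACT_IL21, and passed in no comparison (0.95 ± 0.25 between ACT_IL21 and N, limma adjusted p = 0.0862). Dgka over Dgkz was 9.44 and 12.1 in N, 3.14 and 4.66 in ACT, and 4.40 and 3.73 in ACT_IL21, so N stood apart from both ICOS+ pools in this ratio.

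Dgka lies on chromosome 10 at 128720134 to 128744855 of GRCm38, minus strand, and its exons share 105 bases with Pmel on the opposite strand, which was at 1.95 to 10.59 TPM. Dgka and Cd247 were the members that passed the threshold as lower in ACT than in N. For that reason the 250 bases upstream of a RefSeq start of each (GRCm38.p6, 5′ to 3′) are shown, with GGAA or TTCC in capitals. The Dgka window is chr10:128743879-128744128 on the minus strand, before the 1 of its 4 RefSeq starts that lies in a GENCODE M21 transcript. That start is 977 bases from the 5′ end of the annotated gene, so the Dgka window lies within the gene. The Cd247 window is chr1:165788431-165788680 on the plus strand and ends where the annotated gene begins.
Dgka: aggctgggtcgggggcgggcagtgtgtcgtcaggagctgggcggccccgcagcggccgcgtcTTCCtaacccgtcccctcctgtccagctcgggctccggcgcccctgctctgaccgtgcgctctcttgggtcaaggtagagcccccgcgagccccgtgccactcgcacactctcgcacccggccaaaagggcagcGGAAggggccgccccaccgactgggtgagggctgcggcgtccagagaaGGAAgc
Cd247: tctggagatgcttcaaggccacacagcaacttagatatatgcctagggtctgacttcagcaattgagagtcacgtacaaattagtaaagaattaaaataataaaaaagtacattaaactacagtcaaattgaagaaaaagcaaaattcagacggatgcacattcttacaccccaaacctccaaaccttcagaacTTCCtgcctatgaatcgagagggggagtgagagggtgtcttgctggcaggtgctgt
The Dgka window holds 3 matches and the Cd247 window 1, beside the median of 3 over all windows. CANNTG, the E-box, was found 2 times in the Cd247 window and not in the Dgka window, and in 66.2% of all windows. These are matches of letters, not measured binding.

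**Figure D4:**
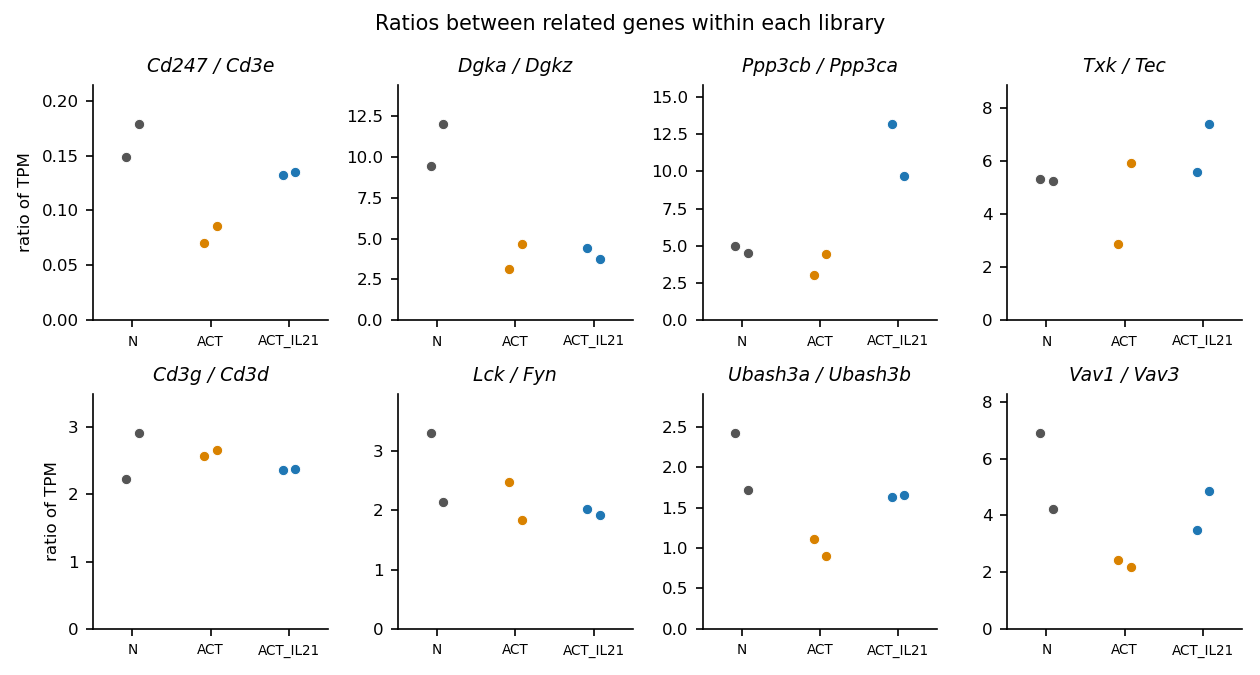
Ratios of TPM between related genes within each library (y axis) for the 2 libraries of each pool (x axis). Dots are libraries; Cd247 over Cd3e was lowest in ACT (0.0704 and 0.0857), Dgka over Dgkz highest in N (9.44 and 12.1), and Ppp3cb over Ppp3ca highest in ACT_IL21 (13.2 and 9.68).

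The other enzymes of the lipid and Ras branch did not pass. Plcg1, the phospholipase, was at 70.11 to 83.24 TPM in N and ACT and 105.16 and 111.61 TPM in ACT_IL21 (0.55 ± 0.16 against N, limma adjusted p = 0.116). Prkcq, protein kinase C theta, had its lowest pair in ACT, at 199.36 and 195.64 TPM against 241.34 to 285.43 TPM in the other pools. Rasgrp1, the exchange factor that loads RAS, was at 311.09 and 301.47 TPM in N, 228.74 and 238.37 TPM in ACT, and 206.47 and 223.66 TPM in ACT_IL21, so N was highest (ACT_IL21 against N, -0.51 ± 0.13, limma adjusted p = 0.0765). Sos1, another exchange factor, was at 19.02 to 25.32 TPM throughout.

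Malt1 and Bcl10 act in the complex that carries the signal to NF-kB. Malt1, a paracaspase, was at 86.33 and 97.09 TPM in N, 84.60 and 93.52 TPM in ACT, and 154.18 and 162.19 TPM in ACT_IL21. N and ACT overlapped and the ACT_IL21 libraries were above both. Malt1 rose between N and ACT_IL21 by 0.78 ± 0.15 (limma adjusted p = 0.0276) and was higher in ACT_IL21 than in ACT by 0.82 ± 0.15 (limma adjusted p = 0.0403). Under median-of-ratios scaling neither call held (adjusted p = 0.0635 and 0.0714), the first was lost without any 1 of the N or ACT_IL21 libraries (up to 0.195), and the second without any 1 of the 6 libraries (up to 0.265). Bcl10 did not move with it, at 67.45 and 76.77 TPM in N, 94.62 and 87.18 TPM in ACT, and 76.49 and 71.93 TPM in ACT_IL21, and did not pass.

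Of the 8 phosphatases and restraining genes, 2 passed. Ptpn22, a phosphatase that acts on LCK and ZAP-70, was at 164.11 and 180.35 TPM in N, 284.28 and 286.77 TPM in ACT, and 337.71 and 306.55 TPM in ACT_IL21. Ptpn22 was the only member that passed the threshold as higher in both ICOS+ pools, each against the same N libraries. The rise was 0.73 ± 0.14 in ACT (limma adjusted p = 0.0214) and 0.90 ± 0.14 in ACT_IL21 (limma adjusted p = 0.00968). The ACT call was lost without any 1 of the 6 libraries (up to 0.166) and the ACT_IL21 call without any 1 of the N or ACT_IL21 libraries (up to 0.109). Ubash3b, which encodes STS-1, a phosphatase that acts on ZAP-70, was at 19.29 and 20.87 TPM in N, 34.28 and 28.90 TPM in ACT, and 38.56 and 42.86 TPM in ACT_IL21. Ubash3b rose between N and ACT_IL21 by 0.98 ± 0.22 (limma adjusted p = 0.0418), a call lost under both rescalings (adjusted p = 0.0659 and 0.0580) and without any 1 of the N or ACT_IL21 libraries (up to 0.237). Its relative Ubash3a was at 46.80 and 35.92 TPM in N, 38.24 and 26.06 TPM in ACT, and 63.11 and 71.22 TPM in ACT_IL21, and did not pass (ACT_IL21 against ACT, 1.06 ± 0.24, limma adjusted p = 0.0805). Ubash3a over Ubash3b was 2.43 and 1.72 in N, 1.12 and 0.902 in ACT, and 1.64 and 1.66 in ACT_IL21. Ptprc, which encodes CD45 and activates LCK, was at 1213.25 to 1934.83 TPM. Csk, which inactivates LCK, ranged from 53.50 to 108.87 TPM, and Pag1, the adaptor that anchors CSK, from 60.65 to 109.73 TPM. Ptpn6, the SHP-1 phosphatase, ranged from 65.00 to 93.62 TPM, and the inhibitory adaptor Sit1 from 26.64 to 49.85 TPM. None of these 5 passed.

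In the calcium branch, 1 of 6 members passed. Ppp3ca, a catalytic subunit of calcineurin, the phosphatase that activates NFAT, was at 35.33 and 41.73 TPM in N, 48.20 and 38.47 TPM in ACT, and 11.73 and 17.55 TPM in ACT_IL21. N and ACT overlapped and both ACT_IL21 libraries were below them. Ppp3ca fell between N and ACT_IL21 by 1.36 ± 0.26 (limma adjusted p = 0.0269), 2.63-fold by means, and was lower in ACT_IL21 than in ACT by 1.52 on the log2 scale (-1.52 ± 0.26, limma adjusted p = 0.0305). The first call was lost without any 1 of the N or ACT_IL21 libraries (up to 0.231) and the second without any 1 of the 6 libraries (up to 0.174). The more abundant catalytic subunit, Ppp3cb, was at 176.82 and 187.41 TPM in N, 145.19 and 171.03 TPM in ACT, and 154.91 and 169.91 TPM in ACT_IL21, and did not pass. Of the summed TPM of Ppp3ca, Ppp3cb and Ppp3cc, Ppp3ca was 11.5% and 12.9% in N, 16.6% and 12.3% in ACT, and 4.53% and 5.96% in ACT_IL21, while the sum was 259.14 to 323.77 TPM. Stim1 and Orai1, the calcium sensor and channel of store-operated entry, Itpr1, the calcium release channel, and Itpkb, a kinase of its ligand, did not pass. Orai1 varied most between libraries of a pool, at 28.44 and 10.43 TPM in N and 20.66 and 8.73 TPM in ACT.

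The pathway around these 46 genes was followed in a separate list of 75 other genes of T cell receptor signalling and costimulation, of which 72 were tested. In ACT against N, 6 were higher and 2 lower (11.1%, beside 5.58% of all genes). Cd226, an adhesion and costimulatory receptor, was at 52.52 and 50.58 TPM in N and 232.17 and 246.18 TPM in ACT and rose by 2.19 ± 0.15 (limma adjusted p = 0.000268). Sla, which encodes SLAP, an adaptor that lowers receptor levels, rose by 1.36 ± 0.14 (limma adjusted p = 0.00168), the phosphatase gene Ptprj by 3.03 ± 0.44 (limma adjusted p = 0.00659; 0.49 and 1.38 TPM in N, 17.49 and 11.84 TPM in ACT), and the adaptor Lax1 by 1.47 ± 0.25 (limma adjusted p = 0.0149). Rasgrp2, an exchange factor for RAP1, was lowest in ACT, as Dgka and Cd247 were, at 143.39 and 117.96 TPM in N, 59.66 and 45.25 TPM in ACT, and 120.21 and 114.80 TPM in ACT_IL21, and fell in ACT by 1.31 ± 0.19 (limma adjusted p = 0.00706). The calls of Cd226 and Sla held without any 1 library, whereas those of Ptprj and Rasgrp2 were lost without N replicate 1 (adjusted p = 0.0660 and 0.0763) and that of Lax1 without either N library (up to 0.115).

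In ACT_IL21 against N, 6 of the 72 were again higher and 2 lower. Ptpn11, which encodes the phosphatase SHP-2, was at 28.45 and 26.04 TPM in N, 43.39 and 38.12 TPM in ACT, and 81.31 and 98.61 TPM in ACT_IL21, and rose by 1.68 ± 0.20 (limma adjusted p = 0.00327). Cd28, the main costimulatory receptor, was at 410.81 and 456.94 TPM in N, 536.87 and 607.41 TPM in ACT, and 866.90 and 802.68 TPM in ACT_IL21, and rose by 0.94 ± 0.14 (limma adjusted p = 0.00899). Sla rose by 1.07 (limma adjusted p = 0.0059) and Lax1 by 1.51 (limma adjusted p = 0.0143). With 1 library left out the Ptpn11 call held, those of Cd28 and Sla were lost without N replicate 1 or either ACT_IL21 library (up to 0.109 and 0.0717), and that of Lax1 without any 1 of the N or ACT_IL21 libraries (up to 0.130). In ACT_IL21 against ACT, 2 were higher (Rasgrp2 and Ptpn11) and 1 lower (Cd226, by -1.86), or 4.17%, beside 1.95% of all genes, and without N replicate 1 or 2 or ACT_IL21 replicate 1 or 2 the count was 1.

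Transcripts used as markers of other lymphocytes were higher in the ACT pool, beside the lower Dgka and Cd247 values there. All 3 pools were gated as CD4+, and which cells carried these transcripts was not measured. The summed level of 4 measured gamma delta T cell genes was 13.58 and 9.79 TPM in N and 900.15 and 622.74 TPM in ACT. In ACT_IL21 the sum was 95.78 and 69.50 TPM. Of the 4, 3 rose between N and ACT, all of them gamma chain constant genes (Tcrg-C1, Tcrg-C2 and Tcrg-C4). Sox13 was at 3.97 and 0 TPM in ACT and did not pass. The delta chain constant gene Trdc had no entry, so no delta chain gene is in the sum. The sum of 10 natural killer and NKT cell genes was 45.31 and 51.97 TPM in N and 510.10 and 541.11 TPM in ACT. In ACT_IL21 it was 56.20 and 65.94 TPM. In ACT 4 of the 8 tested rose, although Ncr1 was at 0 to 1.06 TPM. Zbtb16, 1 of the 4, was at 0 and 0.18 TPM in N and 40.05 and 27.31 TPM in ACT (limma adjusted p = 0.0017). Its ACT_IL21 libraries were at 5.91 and 1.70 TPM. Most of the ACT sum was Xcl1 (195.08 and 228.09 TPM) and Klrb1c (166.08 and 177.29 TPM). In ACT_IL21 against N, 1 gene passed as higher (Klrb1c, 25.49 and 25.70 against 2.56 and 2.38 TPM). Another, Klrd1, passed as lower (6.42 and 13.87 against 33.29 and 38.02 TPM). The sum of 4 regulatory T cell genes was 120.92 and 155.50 TPM in N, 552.59 and 700.52 TPM in ACT, and 343.52 and 357.93 TPM in ACT_IL21, and all 4 rose in ACT, the Foxp3 and Il2ra calls being lost without any 1 of the N or ACT libraries (adjusted p up to 0.268 and 0.204). Foxp3, which defines regulatory T cells, was at 22.19 and 19.38 TPM in N, 65.43 and 51.87 TPM in ACT, and 1.57 and 2.69 TPM in ACT_IL21. In ACT_IL21 against N, Foxp3 and Il2ra were lower and Ikzf2 and Ctla4 higher (Ikzf2 without ACT_IL21 replicate 2, adjusted p = 0.0515). The part of these transcripts' source in the changes of the signalling genes was not tested. B cell genes summed to 4.76 to 21.65 TPM over the libraries, myeloid and dendritic cell genes to 29.72 to 71.98 TPM, erythroid genes to 5.45 to 93.74 TPM, and Cd8a and Cd8b1 to 3.41 to 27.04 TPM.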

How the data were processed

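Polyadenylated RNA of 6 libraries was extracted with Qiagen RNeasy Mini kits and amplified with the NuGEN Ovation kit, per the labels' protocols. The authors deposited gene-level TPM for each library. Per the submitters' processing notes, the tools were RSEM, Bowtie and Trimmomatic, without versions, on the build GRCm38. Read length, strand setting and annotation release were not given in the sources used here. TPM keeps no depth, so no counting interval is given. RSEM splits reads shared by several genes by estimation, and a fixed total makes each value depend on all others.

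Of 38355 entries, 139 with a repeated symbol were summed, and the 13311 genes that reached 1 TPM in 2 or more libraries were tested. limma 3.58.1 in R 4.3.3 fitted 1 model of log2(TPM + 1) over the 3 pools with an intensity trend (3 residual and 4.841 prior degrees of freedom, two-sided), after a check on simulated data. A pseudocount of 1 understates changes of low genes. Adjustment was by Benjamini-Hochberg over all genes in each comparison.

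All members were to be named by role, with every library's value for those past 0.05 in any comparison and for the CD3 chains, Cd4, Lck, Zap70 and Lat. Of the other pathway genes, up to 5 with the smallest p in a comparison plus Cd28 were named, and some genes the rule covers are not reported here. Ratios of paralogs and values of some further members were added after values were seen. The members and lists were chosen with earlier results of these data known. Coordinates and exon overlaps are from GENCODE M21 (GRCm38), and promoter sequences from RefSeq (GRCm38.p6), which matched 38 of the 46 members. Alternatives were other pseudocounts, filters and scalings, no trend, a replicate block, 2 pools alone and leaving out each library. Where that leaves a pool with 1 library, it is assumed to vary like the other pools.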

Additional observations from a re-analysis of the deposited data

How the results depend on the processing

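None of the 18 calls of members reversed under any of 15 alternatives. Without the intensity trend, the members past the threshold numbered 1 (ACT and N), 1 (ACT_IL21 and N), 0 (ACT_IL21 and ACT) and 2 (F test), and 16 calls were lost; the cause was not tested. Without a filter on low values, 5 members passed between ACT_IL21 and N and 6 in the F test, and over all genes 469, 410 and 124 in the 3 comparisons and 573 in the F test. Fitting only the 2 pools compared left 1 member between ACT and N, 2 between ACT_IL21 and ACT, and 137 genes in all in the last. Leaving out 1 library gave 1 to 2, 1 to 10 and 0 to 4 members in the 3 comparisons and 2 to 11 in the F test, and 260 to 678, 169 to 903, 32 to 202 and 337 to 1036 genes in all; with fewer libraries, a pool rests on 1. The other pathway genes past the threshold (8, 8 and 3 in the 3 comparisons) numbered 4, 4 and 1 without a filter, 3, 1 and 1 without the trend, and 3 to 9, 1 to 10 and 1 to 3 with 1 library left out; between ACT_IL21 and ACT they were 5 with a pseudocount of 5, 5 with a filter of 5 TPM, and 1 with 2 pools alone. Raising the filter to 5 TPM lost no member's call, and a pseudocount of 0.1 or of 5 lost 1 each (Malt1 between ACT_IL21 and ACT, Tec between ACT_IL21 and N). Deviations of same-numbered libraries correlated at 0.21 between N and ACT, but at -0.004 and 0.001 for ACT_IL21 with N and with ACT, so a shared pattern was seen for N and ACT alone and the numbers were not taken as pairs over the 3 pools. With a replicate block, 3, 8 and 7 members passed in the comparisons, 10 in the F test, and 784, 732, 284 and 974 genes in all; the Ubash3b call was lost. Depth is unknown, so the precision of Tec and Vav3, the lowest members, cannot be set from counts.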

Other observations

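The 2 libraries of the N pool and of the ACT pool differed in the same direction for 33 of the 46 members (71.7%), beside 61.1% of all genes tested and 67.8% of the 7296 genes whose mean was at least that of the lowest member. Between those libraries 8 members (Cd3e, Cd6, Zap70, Dgkz, Csk, Stim1, Orai1 and Itpkb) were at least 1.3 times higher in replicate 1 than in replicate 2 in both pools on the TPM + 1 scale (17.4%), beside 11.8% of all genes tested and 10.2% of those 7296 genes. Itpkb, for example, was at 71.05 and 45.66 TPM in N and 71.38 and 44.95 TPM in ACT, but at 86.12 and 91.68 TPM in ACT_IL21. None of the 8 passed the threshold in any comparison. They were picked by gaps between the libraries of a pool, which widen the spread the test uses, so this outcome was partly set by the choice. These are values of the libraries, and their cause was not tested.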
